A study of Mus musculus with 9 samples.

Results

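Of 13489 non-methylated islands (NMIs) mapped in C127 cells on chromosomes 1 to 19 and X, 306 (2.27%, 95% interval 2.02 to 2.53) held a transcription start site (TSS) of a non-coding gene and none of a protein-coding gene. These members were chosen by position alone. Each contained the 5′ end of at least 1 transcript of the GENCODE M21 annotation, and none of the transcripts starting inside it belonged to a gene typed as protein-coding. A further 9581 NMIs held a protein-coding TSS and 3602 held no TSS, and both sets are given beside the members. All intervals in parentheses are exact (Clopper-Pearson) 95% binomial intervals that cover counting error only, because NMIs and genes are not independent replicates.

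C127 is a mouse mammary epithelial cell line, and per the labels the cells were untreated and carried no stated genetic change. The study sampled it by 3 ATAC libraries with 1 input, 3 libraries of RNA labelled with 4-thiouridine, and 1 BioCAP library with 1 input. NMIs came from the single BioCAP library, which captures DNA fragments with CpG sites that lack methylation, so there was no replicate and no comparison below carries a test. The other samples were not analysed here.

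Most CpG sites of mammalian DNA are methylated, whereas CpG islands remain free of methylation and are recognised by proteins with a CXXC domain, among them CFP1 of the SET1 complex. Such islands are best known from promoters of protein-coding genes, but genes that make no protein also start in them. Long non-coding RNAs are long transcripts with few coding features, many but not all of them spliced. MicroRNAs (miRNAs) silence mRNAs after being cut from hairpins. Small nuclear and nucleolar RNAs act in splicing and in RNA modification, and pseudogenes are copies of genes that have lost their function. GENCODE uses the type TEC for transcripts that still need experimental work, and the type processed_transcript for long transcripts without an open reading frame. The annotated 5′ end of a miRNA or other small RNA gene is the end of its hairpin or mature RNA, and need not be where a longer primary transcript begins.

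Promoter windows of 8 members show the range of sequence that the members covered. Each window runs 5′ to 3′ on the gene's strand from 250 bases before to 50 bases after 1 annotated TSS, on GRCm38 (mm10), with CpG dinucleotides in capitals. The first 3 come from wide members of the commonest long non-coding types, at Lncpint (chr6:31218173-31218472, minus strand, 17 CpGs), AC154766.4 (chr17:23550549-23550848, plus strand, 10 CpGs) and Dleu2 (chr14:61648573-61648872, minus strand, 28 CpGs). Snhg8 (chr3:123508355-123508654, minus strand, 30 CpGs) stands for hosts of small nucleolar RNAs and Rn7sk (chr9:78175584-78175883, minus strand, 8 CpGs) for structural RNAs. Kcnq1ot1 (chr7:143296500-143296799, minus strand, 9 CpGs) stands for genes named as opposite-strand or overlapping transcripts of a coding gene. Gm23935 (chr16:11143875-11144174, plus strand, 34 CpGs) and Gm44089 (chr6:86087031-86087330, minus strand, 2 CpGs) are the TSSs of the members with the highest and the lowest CpG density. The windows at Kcnq1ot1, Gm23935 and Gm44089 lay in the member over 171, 120 and 153 of their 300 bases, and the other windows lay wholly inside.
Lncpint: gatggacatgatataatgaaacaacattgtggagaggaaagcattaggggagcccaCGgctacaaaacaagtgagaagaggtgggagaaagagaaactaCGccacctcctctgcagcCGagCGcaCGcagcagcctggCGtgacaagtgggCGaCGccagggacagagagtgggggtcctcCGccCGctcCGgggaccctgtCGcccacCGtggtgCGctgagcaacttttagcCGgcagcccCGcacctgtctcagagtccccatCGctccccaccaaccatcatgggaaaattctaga
AC154766.4: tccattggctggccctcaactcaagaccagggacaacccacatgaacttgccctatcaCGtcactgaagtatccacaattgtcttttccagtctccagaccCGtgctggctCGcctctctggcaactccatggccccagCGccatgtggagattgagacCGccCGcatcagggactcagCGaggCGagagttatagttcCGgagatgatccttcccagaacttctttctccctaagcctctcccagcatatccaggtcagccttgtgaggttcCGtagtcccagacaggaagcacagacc
Dleu2: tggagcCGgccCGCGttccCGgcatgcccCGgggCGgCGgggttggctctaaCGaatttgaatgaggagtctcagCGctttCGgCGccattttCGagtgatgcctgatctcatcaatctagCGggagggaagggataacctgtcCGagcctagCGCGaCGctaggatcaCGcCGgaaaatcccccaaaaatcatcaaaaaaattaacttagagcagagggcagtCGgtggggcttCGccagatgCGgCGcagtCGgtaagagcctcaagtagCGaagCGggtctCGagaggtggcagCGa
Snhg8: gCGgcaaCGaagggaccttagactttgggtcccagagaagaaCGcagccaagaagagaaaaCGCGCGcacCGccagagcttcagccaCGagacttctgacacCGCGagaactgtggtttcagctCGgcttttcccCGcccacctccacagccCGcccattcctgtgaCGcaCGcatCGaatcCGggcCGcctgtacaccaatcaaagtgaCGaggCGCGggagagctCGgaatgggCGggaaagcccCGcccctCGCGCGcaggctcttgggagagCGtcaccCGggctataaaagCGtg
Rn7sk: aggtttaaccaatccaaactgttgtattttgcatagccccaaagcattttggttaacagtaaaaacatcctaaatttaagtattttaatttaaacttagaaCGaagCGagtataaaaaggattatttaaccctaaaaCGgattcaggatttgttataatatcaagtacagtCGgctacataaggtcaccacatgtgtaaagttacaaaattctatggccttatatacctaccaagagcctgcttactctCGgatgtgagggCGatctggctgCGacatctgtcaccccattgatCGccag
Kcnq1ot1: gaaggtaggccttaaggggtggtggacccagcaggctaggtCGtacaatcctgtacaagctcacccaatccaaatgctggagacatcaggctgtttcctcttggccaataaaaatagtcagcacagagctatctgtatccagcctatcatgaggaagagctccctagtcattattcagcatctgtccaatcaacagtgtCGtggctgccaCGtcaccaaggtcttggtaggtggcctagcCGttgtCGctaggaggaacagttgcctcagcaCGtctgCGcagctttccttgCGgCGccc
Gm23935: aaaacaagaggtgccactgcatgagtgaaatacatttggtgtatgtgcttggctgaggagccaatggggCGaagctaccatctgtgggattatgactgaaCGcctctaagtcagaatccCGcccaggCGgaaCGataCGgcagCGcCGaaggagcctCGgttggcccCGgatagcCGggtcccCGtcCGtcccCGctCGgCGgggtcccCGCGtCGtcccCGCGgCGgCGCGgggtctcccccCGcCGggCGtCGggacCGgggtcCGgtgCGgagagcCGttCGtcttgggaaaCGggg
Gm44089: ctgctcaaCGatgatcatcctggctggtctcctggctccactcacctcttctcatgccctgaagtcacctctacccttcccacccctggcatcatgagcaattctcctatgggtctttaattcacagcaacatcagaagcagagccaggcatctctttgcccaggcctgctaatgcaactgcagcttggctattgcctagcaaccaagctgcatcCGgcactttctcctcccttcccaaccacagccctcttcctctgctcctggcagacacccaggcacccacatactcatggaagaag

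For the miRNA genes whose hairpin began in a member, the mature sequence is what identifies the gene. Of 18 such genes, 12 had mature sequences in RefSeq (GRCm38.p6), 22 in all with 21 distinct seeds. The 6 below belong to the miRNAs best known from other work, with the seed (bases 2 to 8) in capitals. Mir132 and Mir212 lay in 1 member, and their 3p strands were the only mature sequences among the 22 that shared a seed.
mmu-miR-132-3p: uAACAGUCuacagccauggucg
mmu-miR-212-3p: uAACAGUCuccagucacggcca
mmu-let-7i-5p: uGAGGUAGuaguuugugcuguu
mmu-miR-125b-5p: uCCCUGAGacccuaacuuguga
mmu-miR-21a-5p: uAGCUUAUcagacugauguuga
mmu-miR-193a-3p: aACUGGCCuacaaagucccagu

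Long non-coding genes accounted for most members. A total of 250 members (81.7%, 76.9 to 85.9) held a TSS of a long non-coding gene, and 226 held TSSs of that family alone. By single type, 152 members held a lincRNA, a long RNA from between genes, 57 a processed_transcript and 45 an antisense gene. Small RNA genes started in 39 members, pseudogenes in 25 and TEC genes in 19. A member could count under several types, since 40 held TSSs of more than 1 gene and 32 of more than 1 type. Among the small RNA types of GENCODE, 16 members held miRNAs, 9 miscellaneous RNAs, 8 small nuclear RNAs and 6 small nucleolar RNAs. Some miscellaneous RNAs lay in members of long non-coding genes, such as Gm27875 with Jpx, Gm27913 with Pvt1 and Gm27972 with Dleu2. Whether these are RNAs apart from the long transcript was not examined. The most genes in 1 member were the 4 at 5430416N02Rik, a lincRNA gene 12766 bp from a TSS of Sec31a.

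The distance from a member's edge to the nearest protein-coding TSS had a median of 17020 bp, with quartiles of 6122 and 49580 bp. Only 18 members (5.88%, 3.52 to 9.14) lay within 1 kb of a coding TSS and 46 lay over 1 and up to 5 kb away. The largest class, with 165 members (53.9%, 48.2 to 59.6), lay over 5 and up to 50 kb away, and 77 lay farther than that. Members with lincRNA TSSs alone had a median distance of 25940 bp (n = 137), against 5162 bp for antisense genes alone (n = 42), 19920 bp for processed_transcript alone (n = 40) and 4620 bp for miRNAs alone (n = 10). The types lincRNA and antisense are defined by place towards other genes, so their distances are not independent of the type. For 187 members (61.1%, 55.4 to 66.6) the nearest other NMI on either side held a protein-coding TSS. Of all 13489 NMIs, 9581 held one, so the share among these neighbours was not raised. Another NMI lay within 1 kb of 16 members.

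**Figure D1:**
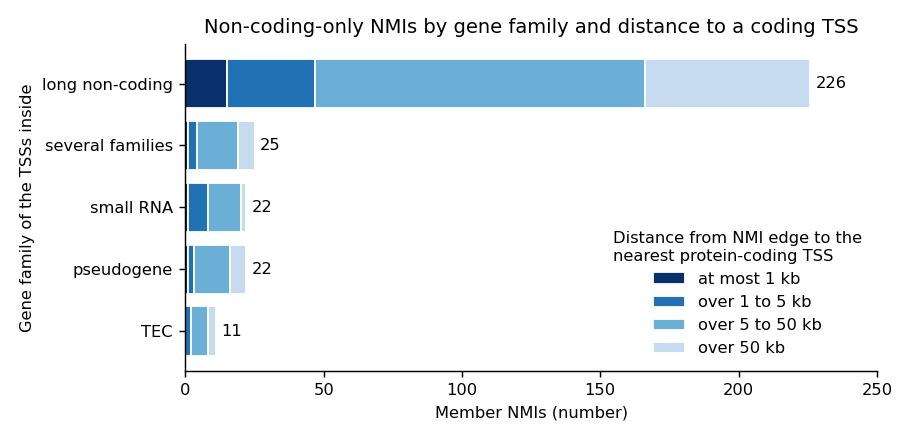
Number of member NMIs (x axis) by the gene family of the TSSs inside (y axis), with the bar shaded by the distance from the edge of the NMI to the nearest protein-coding TSS. Long non-coding genes alone filled 226 of the 306 members, and the class over 5 and up to 50 kb was the longest segment in every bar.

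The members farthest from a coding TSS held long non-coding genes in each case. First came the 1907 bp member that held 3110039I08Rik, Gm28119 and Mir125b-1 (chr9:41580730-41582636), 391951 bp from the nearest coding TSS, that of Sorl1. It was followed by 2610035D17Rik (768 bp, 363658 bp from Slc39a11), 6530403H02Rik (118 bp, the narrowest member, 270013 bp from Rwdd3), Gm26901 (1488 bp, 236513 bp from Pcmtd1) and A230028O05Rik (1197 bp, 213516 bp from Lpp). Repeats made up 38.8% of the bases at Gm26901, the highest share among the members.

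At the near end, the rule passed over coding TSSs that lay just outside an edge. The member at Gm5069, a transcribed pseudogene, ended 1 bp from a TSS of Itpkb, the one at 4732471J01Rik 7 bp from a TSS of Lipe, which encodes hormone-sensitive lipase, and the one at 1700112D23Rik 8 bp from a TSS of Eif5a2. On the other margin of the rule, the TSSs of Gm15873, Gm19196 and Tbx3os2 lay only 7, 13 and 16 bp inside the edge of their member. The TSSs of AC132404.1, Gm38554 and 4933424N20Rik missed an NMI by 3, 4 and 5 bp.

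Each non-coding TSS was also placed by strand towards the nearest coding TSS. Among the 64 members up to 5 kb from a coding TSS, 26 (40.6%, 28.5 to 53.6) held a TSS divergent from it, pointing away on the other strand. Of the same 64, 18 were convergent and 20 were on the same strand. The 2 distance classes within these differed. Of the 18 members within 1 kb, 5 (27.8%, 9.70 to 53.5) were divergent, 9 (50.0%, 26.0 to 74.0) convergent and 4 on the same strand. Of the 46 over 1 and up to 5 kb away, 21 (45.7%, 30.9 to 61.0) were divergent, 9 convergent and 16 on the same strand. Among all members, 89 (29.1%, 24.1 to 34.5) were divergent, 70 convergent and 147 (48.0%, 42.3 to 53.8) on the same strand. A protein-coding gene overlapped 45 members, of which 23 met an exon and 22 met introns alone. In 36 of these 45 (80.0%, 65.4 to 90.4) the non-coding gene was on the opposite strand. Examples were Kcnq1ot1 in an intron of Kcnq1, Gm16174 in an intron of Bcl3 and Gm47061 over an exon of Tfap2a, which encodes a transcription factor of epithelia. The remaining 261 members (85.3%) lay outside coding genes. This share and the 80.0% on the opposite strand follow in part from the annotation. Antisense genes are typed as lying opposite another gene, and lincRNA genes as lying between genes.

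The label of non-coding was checked against a second annotation, chosen after the data were seen. In RefSeq, 27 members (8.82%, 5.90 to 12.6) held the 5′ end of an mRNA, 19 of them that of a curated mRNA, against 97.2% of NMIs with a protein-coding TSS, 2.97% of NMIs without a TSS and 70.0% of all NMIs. In 10 of the 27, the mRNA belonged to a gene that GENCODE M21 names in the same member and types as non-coding or as a pseudogene, and these 10 included Zswim6, Trerf1, Ptpmt1, Tctn2, Spata5l1 and Ifi30. In 11, it belonged to the nearest protein-coding gene, such as Sirt4, Lipe, Tef, Bcl11a and Rnf213. For these 27 the name non-coding depended on the annotation, and 279 members held no mRNA start in either.

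Seen from the genes, 1799 of 32088 annotated non-coding genes had an NMI at a TSS, which is 5.61% (5.36 to 5.86) against 47.9% of 21755 protein-coding genes and 22.7% of all genes. Only 349 non-coding genes (1.09%, 0.977 to 1.21) started in a member. A total of 1453 of the 1799 (80.8%, 78.9 to 82.6) started in an NMI that also held a protein-coding TSS, and 3 genes did both. Genes of the type bidirectional_promoter_lncRNA are defined by a shared promoter, and 141 of the 142 with an NMI shared it with a coding TSS.

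The types differed in how often they had an NMI and in whether they shared it. A processed_transcript gene had an NMI in 265 of 788 cases (33.6%), and 57 genes (7.23%, 5.52 to 9.27) started in a member. Among antisense genes 540 of 2958 (18.3%) had an NMI, of which 497 (92.0%, 89.4 to 94.2) shared it with a coding TSS and 44 started in a member. Of 5305 lincRNA genes 367 (6.92%, 6.25 to 7.63) had an NMI, with 218 (59.4%, 54.2 to 64.5) sharing it and 150 in a member. The lower quantities were 6.15% of miRNA genes, 5.58% of TEC genes, 2.32% of small nucleolar and 1.30% of small nuclear RNA genes. Of 9849 processed pseudogenes, which are copies made from spliced mRNA, 7 had an NMI (0.0711%, 0.0286 to 0.146), whereas 22 of 293 (7.51%) transcribed processed pseudogenes did. None of 345 rRNA genes had an NMI in the list, which allows a share of up to 1.06% by the exact interval and 0.870% by a limit of 3 counts. These limits cover counting error only. Reads without a unique position had been discarded, so genes with copies elsewhere could be missed, which was not tested.

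**Figure D2:**
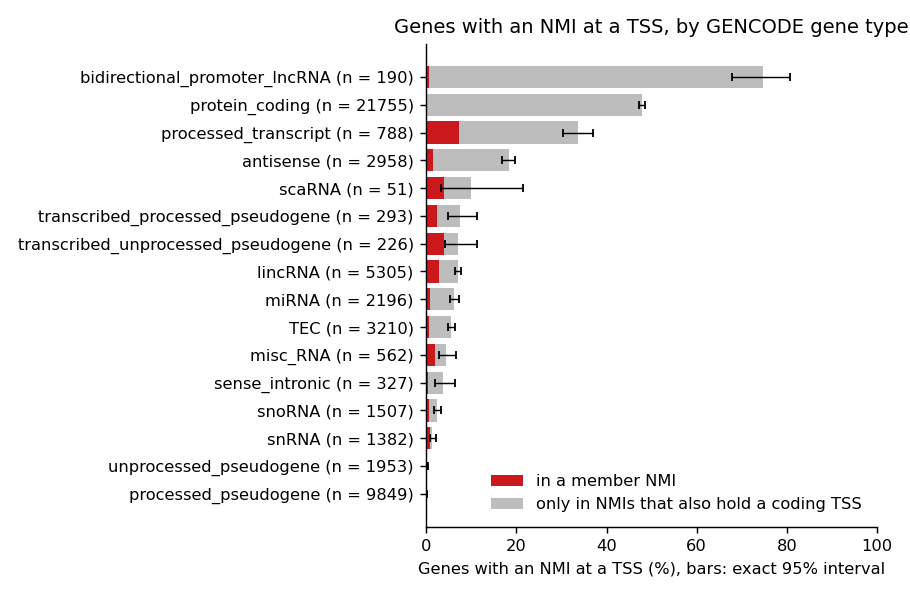
Share of the genes of selected GENCODE types with an NMI at a TSS (x axis, %), with exact 95% intervals as whiskers and the number of genes beside each type. Types without an NMI and some others, among them the type pseudogene, are not drawn. The red part starts in a member and the grey part only in NMIs that also hold a coding TSS, and the red part was longest for processed_transcript genes, at 7.23%.

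The widest members held genes of several kinds. The widest was the 4088 bp member at Zswim6 (chr13:107888201-107892288), 152158 bp from the nearest coding TSS in GENCODE, and it is 1 of the 10 that RefSeq assigns to an mRNA of the same gene. Lncpint, a long non-coding RNA induced by p53, came next at 3110 bp (chr6:31216066-31219175), and a second Lncpint member of 661 bp lay 951 bp away. Lockd, which lies downstream of the cell cycle inhibitor gene Cdkn1b, started in a member of 2648 bp, and AC154766.4, an antisense gene, in one of 2637 bp. They were followed by Mir193a (2616 bp), 2410080I02Rik near Klf9 (2565 bp), Dleu2 with Gm37472 (2544 bp), C030014I23Rik with Gm47204 (2537 bp), 1700041G16Rik (2372 bp) and the pseudogene B330016D10Rik (2260 bp). These 10 spanned 47.7 to 66.1% GC.

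As a set, the members were intermediate in width. Their median was 828 bp, with quartiles of 505.2 and 1286 bp and a range of 118 to 4088 bp. NMIs with a protein-coding TSS had a median of 1173 bp and those without a TSS 330 bp. The 7070 NMIs that held the TSS of 1 protein-coding gene and of no other gene had a median of 1102 bp. A wider interval holds a TSS more often, so width was not independent of the choice of members. By family the median was 1066 bp for small RNA genes alone (n = 22), 844 bp for TEC (n = 11), 783 bp for long non-coding genes (n = 226) and 541.5 bp for pseudogenes (n = 22).

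CpG content of the reference sequence was also intermediate. The ratio of observed to expected CpG, which sets the number of CpGs against that given by the C and G content, had a median of 0.683 in members (quartiles 0.550 and 0.810), 0.762 in NMIs with a protein-coding TSS and 0.527 in NMIs without a TSS. The medians of CpGs per 100 bp were 5.42, 6.89 and 3.51, and those of GC content 57.4%, 60.8% and 53.1%. A CpG island predicted from sequence by the criteria of Takai and Jones overlapped 190 members (62.1%, 56.4 to 67.6), against 72.8% of all NMIs, 93.5% of NMIs with a protein-coding TSS and 18.5% of those without a TSS. Among intervals wider than the lower quartile of all NMIs (572.5 bp), the shares were 76.4% of 216 members, 95.9% and 47.1%. The looser criteria of Gardiner-Garden and Frommer were met by 280 members (91.5%, 87.8 to 94.4), 99.2% of NMIs with a protein-coding TSS and 60.3% of those without a TSS.

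**Figure D3:**
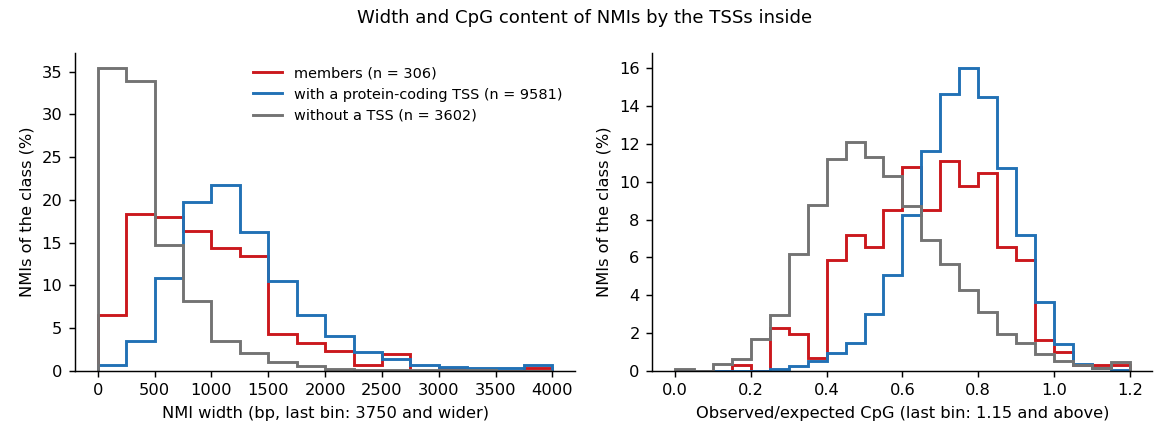
Share of the NMIs of each class (y axis, %) by width in bp (left) and by observed/expected CpG (right), for members (red), NMIs with a protein-coding TSS (blue) and NMIs without a TSS (grey). The members' medians of 828 bp and 0.683 lay between those of the other classes, with wide overlap.

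The families within the members differed little in this ratio beside their own spread. Medians were 0.665 for long non-coding genes alone, 0.732 for small RNA genes, 0.675 for TEC and 0.623 for pseudogenes, while the quartiles of the long non-coding set ran from 0.538 to 0.789. The extremes were single members. The densest was the 120 bp member at Gm23935, typed as a miRNA, with 19.2 CpGs per 100 bp and 80.8% GC. It was followed by 6530409C15Rik (14.1), the pseudogene Gm49326 (12.3), 9430091E24Rik (11.5) and 1700112D23Rik (11.3). The sparsest were Gm44089 (1.64), AC162612.1 (1.74) and Gm26634 (1.77), with ratios of 0.187, 0.290 and 0.280.

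Some members held sequence that occurs elsewhere in the genome, a measure added after the data were seen because reads without a unique position had been discarded by the authors. Words of 31 bases with a second copy in the genome on either strand made up at least 10% of the words in 24 members (7.84%, 5.09 to 11.5), in 2.63% of NMIs with a protein-coding TSS and in 2.33% of those without a TSS. The count was 6 of 22 for members with pseudogenes alone, 4 of 22 for small RNA genes and 12 of 226 for long non-coding genes. The highest shares were 75.0% at the pseudogene 2610005L07Rik and 73.3% at Gm23935, so both are reported as uncertain. At least 10% was also seen at Rn7s2 (26.1%), Rnu1a1 (23.7%) and Rn7sk (14.8%), whose families have many near-identical copies.

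To ask whether a non-coding promoter of a given CpG content was as often an NMI as a coding one, genes were set side by side by the CpG density within 500 bp of their outermost TSS. Genes with a TSS of another protein-coding gene within 1 kb were left out. At 2 to 4 CpGs per 100 bp, 85 of 1244 long non-coding genes (6.83%, 5.49 to 8.38) had an NMI there, against 572 of 2769 protein-coding genes (20.7%, 19.2 to 22.2). At 4 to 6 the shares were 33.8% of 210 and 63.2% of 3044, and at 6 to 8 they were 50.5% of 93 and 75.8% of 2749. At 8 or more they were 43.5% of 62 and 79.7% of 2943. At 4 or more CpGs per 100 bp in all, 145 of 365 long non-coding genes (39.7%, 34.7 to 45.0) and 6353 of 8736 protein-coding genes (72.7%, 71.8 to 73.7) had an NMI. Below 1 CpG per 100 bp no gene of either kind had one. The intervals did not overlap from 2 CpGs per 100 bp upward, and no test was made because a single library gave all values. The gap was narrower when genes near another coding TSS were kept. The shares were then 55.5% of 622 long non-coding and 68.0% of 3840 protein-coding genes at 4 to 6. They were 72.7% of 512 and 79.7% of 3620 at 6 to 8, and 75.8% of 492 and 83.15% of 3733 at 8 or more. The median density at the outermost TSS was 4.3 for long non-coding genes in a member (n = 228), 6.4 for those with an NMI of any kind and 1.2 for those without.

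**Figure D4:**
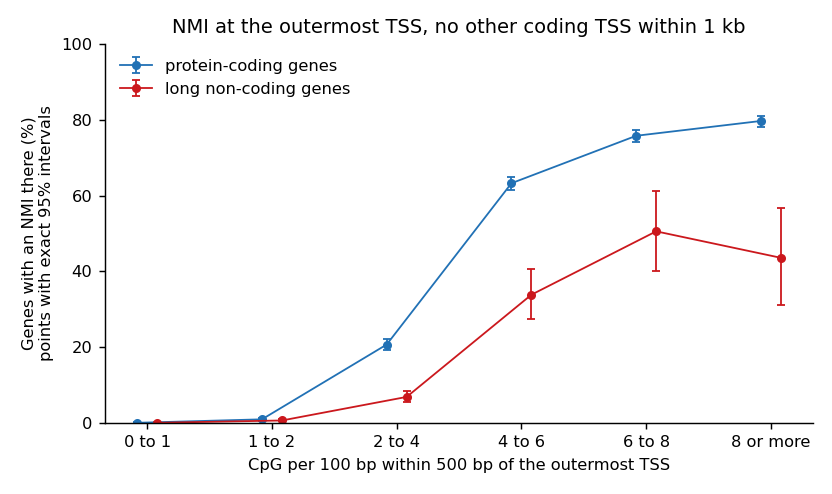
Share of genes with an NMI at their outermost TSS (y axis, %) by CpG density within 500 bp of it (x axis, CpGs per 100 bp), for protein-coding (blue) and long non-coding genes (red) with no TSS of another protein-coding gene within 1 kb. Points carry exact 95% intervals, and the long non-coding points lay below the protein-coding ones from 2 CpGs per 100 bp upward.

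The place of the TSS within the NMI was measured for each pair of a gene and an NMI. Where a gene had several TSSs in an NMI, the one nearest to the centre was taken. Closeness to the middle is therefore set in part by that choice. Positions relative to the centre were measured along the direction of transcription, negative upstream. For long non-coding genes in members the median was -41.0 bp (260 pairs of a gene and an NMI, quartiles -170.1 and 83.6 bp). It was -45.0 bp for protein-coding genes (10853 pairs). For these long non-coding genes a median of 343 bp of the member lay upstream of the TSS and 454 bp downstream. More of the member lay downstream in 148 of the 260 pairs (56.9%, 50.7 to 63.0). For protein-coding genes the medians were 514 and 641 bp and the share was 63.4%. Long non-coding genes that shared an NMI with a coding TSS showed the other arrangement, with 767.5 bp upstream and 536.5 bp downstream. Annotated 5′ ends of small RNA genes lay a median of 82.3 bp downstream of the centre (n = 50), with 616.5 bp of the member upstream and 472.5 bp downstream. More of the member lay downstream for 38.0% (24.7 to 52.8) of the small RNA genes. The share was 42.1% (20.3 to 66.5) of 19 TEC genes and 46.2% (26.6 to 66.6) of 26 pseudogenes in members.

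**Figure D5:**
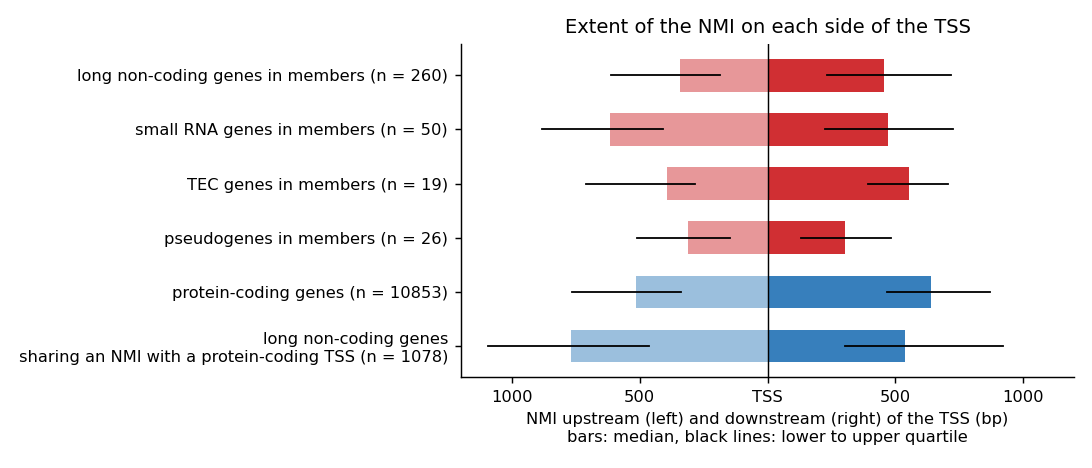
Median length of the NMI upstream (left, pale) and downstream (right, dark) of the TSS in bp along the direction of transcription, with lower to upper quartile as black lines, for 4 families in members (red) and 2 sets in NMIs with a coding TSS (blue). The TSS of each gene nearest to the centre of the NMI was used. Long non-coding genes in members had 343 bp upstream and 454 bp downstream, and small RNA genes 616.5 and 472.5 bp.

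A set of 9 short motifs was counted on both strands in windows from 250 bp before to 50 bp after the TSS. No motif contains another, and a match describes the sequence and not binding. BioCAP captures DNA through its CpG sites, so the share of a motif with a CpG was not independent of the choice of windows. Every motif with a CpG had a higher share in member windows than in all genes, and every motif without one had a lower share. Some of these differences lay within the counting interval. Whether any motif differed beyond CpG content was not tested. GGGCGG, the core of the site of Sp1, was in 140 of 260 windows of long non-coding TSSs in members (53.8%, 47.6 to 60.0). The share was 74.1% of protein-coding TSSs in NMIs, 10.4% of long non-coding genes without an NMI and 23.3% of all genes at their outermost TSS. CCGGAAG, a site of ETS factors, was in 13.1% (9.23 to 17.8) of member windows, 20.9% of protein-coding TSSs in NMIs and 5.99% of all genes. TGACGTCA, the cAMP response element, was in 4.62% (2.41 to 7.92), 3.59% and 1.30% of the same 3 sets. TATAAA, the TATA box, was in 10.4% (6.96 to 14.8), 4.21% and 17.4%. The other shares in member windows and in all genes were 31.9% and 38.4% for CCAAT, 11.2% and 5.52% for CACGTG, 6.15% and 2.75% for CATGCGC, 2.69% and 3.33% for AAGATGGC and 0.769% and 0.651% for TCGCGAGA.

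Among 47 non-coding genes of a list of studied long non-coding RNAs, 17 (36.2%, 22.7 to 51.5) had an NMI and 13 started in a member, against an NMI at 13.8% of all long non-coding genes. The list was written with earlier results of these data known and is no independent evidence. Beside Lncpint, Lockd and Dleu2, the members held 1810026B05Rik (2196 bp), which lies near Chd2, Malat1 (2082 bp), an abundant RNA of nuclear speckles, Lncppara (1592 bp), Kcnq1ot1 (1565 bp), Ftx (1319 bp), Pvt1 (1093 bp), Trp53cor1 (1057 bp), Jpx (945 bp), Dancr (735 bp) and 2900097C17Rik (177 bp). Kcnq1ot1 is the imprinted antisense RNA of the Kcnq1 locus, and its member lay 225013 bp from the next NMI. Jpx and Ftx belong to the X-inactivation centre, where Xist and Tsix had no NMI and lay 9912 and 45444 bp from the Jpx member. Ftx, Dleu2, Lncpint and 3 other genes had TSSs in 2 members each.

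Of the 30 listed genes without an NMI, 3 lay within 1 kb of one. Neat1, the scaffold of paraspeckles, was the nearest case. Its annotated 5′ end (chromosome 19, position 5845478) lay 55 bp from the member of its antisense neighbour Frmd8os (chr19:5845533-5846159), and between that and a second member (chr19:5843709-5844989), with 543 bp between the members. Neat1 is on the minus strand, so the second member, which held the miscellaneous RNAs Gm27505 and Gm27533, lay downstream of that 5′ end. Peg13 lay 186 bp and Fendrr 231 bp from an NMI without a TSS. The imprinted genes H19, Meg3 and Airn lay 42950, 65241 and 27704 bp from the nearest NMI, and no listing of an NMI is not a measurement of methylation.

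Hosts of small nucleolar RNAs, which carry those RNAs in their introns, had an NMI in 15 of 17 cases (88.2%, 63.6 to 98.5), against 13.8% of all long non-coding genes. Of the 15, 9 started in a member and 6 only in NMIs shared with a coding TSS. The 9 members were 697 to 1570 bp wide, with Snhg8 (1570 bp) and Snhg5 (1233 bp) the widest, then Epb41l4aos (972 bp), Snhg20 (954 bp), Snhg15 (934 bp), Snhg17 (853 bp), Snhg12 (831 bp), Dancr (735 bp) and Snhg6 (697 bp). Their observed/expected CpG ran from 0.647 at Snhg17 to 0.939 at Snhg5. Snhg14 and Snhg18 had no NMI, and Snhg18 lay 117 bp from one with a coding TSS.

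Hosts of miRNAs had an NMI in 6 of 17 cases (35.3%, 14.2 to 61.7), and the lower end of this interval was close to the 13.8% of all long non-coding genes. A total of 5 of the 6 started in a member. These were Dleu2, which carries Mir15a and Mir16-1, Lncppara, Mir670hg, Ftx and Mir155hg, the host of Mir155. Mir155hg had the highest CpG density of the 5, with 9.71 per 100 bp over 762 bp, and Mir670hg the lowest, with 2.37 over 1353 bp. Mir17hg, the host of the Mir17 cluster, lay 388 bp from an NMI without a TSS.

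The miRNA genes that started in members themselves differed in setting. Mir132 and Mir212, of the seed shown above, lay in a 917 bp member (chr11:75172976-75173892) 3457 bp from Hic1, with 9.49 CpGs per 100 bp. Mirlet7i, of the let-7 family, lay in a 1899 bp member (chr10:122985132-122987030) with D630033A02Rik, and its observed/expected ratio of 1.13 was below only that of Gm23935 (1.17) among the members. Mir193a lay in 2616 bp with a ratio of 0.707, and Mir125b-1 in 1907 bp with a ratio of 0.471. Mir21a, which is often raised in tumours, lay in a 647 bp member over an exon of Vmp1 on the same strand, with only 1.86 CpGs per 100 bp and a ratio of 0.431. The members at Mir21a, Mir125b-1, Mir7228, Mir7671 and n-TStga1, which GENCODE types as a miRNA, overlapped no Takai-Jones island, and the other members with a miRNA gene did.

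Structural RNA genes had an NMI in 12 of 26 cases (46.2%, 26.6 to 66.6), against 3.63% of all small RNA genes, and 5 of the 12 started in a member. Rn7sk, whose RNA restrains the elongation factor P-TEFb, lay in 1495 bp, Rn7s2, a gene of the signal recognition particle RNA, in 1082 bp, Scarna2 in 778 bp, Terc, the template of telomerase, in 756 bp and Vaultrc5, a vault RNA, in 572 bp. The U1 gene Rnu1a1, which was not on the list, lay in a 639 bp member within an intron of Tex14. Of the 14 listed genes without an NMI, 9 had one within 1 kb of their 5′ end. The 4 U3 genes Rnu3b1, Rnu3b2, Rnu3b3 and Rnu3b4 lay 301, 310, 304 and 300 bp from an NMI without a TSS, and Snord118, Rnu5g, Rny1 and Rnu2-10 lay 19, 84, 139 and 161 bp from another such NMI. Of the small nuclear RNA genes beside the list, the widest members held Gm23296 with Gm24859 (2203 bp), Gm24265 with Gm24407 (1717 bp, in which RefSeq places an mRNA of Sirt4) and Gm25939 (1311 bp, with 17.4% repeated words).

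Members with pseudogenes were mostly narrow, and 12 of the 22 with pseudogenes alone lay at or under the lower quartile of width. Among members with a transcribed processed pseudogene, the widest were those of D630033A02Rik with Mirlet7i (1899 bp), Magef1 (1205 bp) and 4930471M09Rik with the lincRNA gene 1810044D09Rik (1070 bp). Transcribed unprocessed pseudogenes, which keep the exon structure of their parent gene, had narrower members at 2610005L07Rik (601 bp), Zfp939 with Gm5590 (583 bp) and Gm6345 (528 bp). In all, 9 members held a transcribed unprocessed pseudogene and 7 a transcribed processed one.

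Genes named as opposite-strand or overlapping transcripts of a coding gene had an NMI in 76 of 292 cases (26.0%, 21.1 to 31.5), against 18.3% of all antisense genes and 13.8% of all long non-coding genes. In 65 of the 76 the NMI was shared with a coding TSS. The 11 in members included, beside Kcnq1ot1, Epb41l4aos and Frmd8os, Snhg7os (1222 bp), Chrna1os (1032 bp), Fbxl12os (812 bp), Kif16bos (762 bp), Arhgap27os2 (611 bp) and Tbx3os2 (239 bp). At Arhgap27os2 the member lay in an intron 420 bp from a TSS of Arhgap27, and its observed/expected ratio was 0.272.

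The annotation of long non-coding genes was compared between those in members and those elsewhere. Of 254 genes in members, 11 (4.33%) had a single exon, against 13.3% of 1073 that only shared an NMI with a coding TSS and 6.05% of 8276 without an NMI. They had a median of 2 transcripts, against 1 in both other groups, and a gene with more transcripts has more 5′ ends that could fall in an NMI. Their median span was 7915 bp, against 5467 and 6912 bp. A name other than a clone or predicted-gene label was held by 40 of the 254 (15.7%), against 8.11% and 4.29%.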

How the data were processed

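The positions of NMIs were deposited by the authors as chromosome, start and end, and they carry no measured value, so the read depth behind each NMI is unknown. The authors used Bowtie2 for alignment to mm10 and kept only uniquely placed BioCAP reads. SAMtools served to drop duplicates, and MACS gave NMIs at a false discovery rate of 0.01. Tool versions, and whether the input was the control for this list, were not given in the sources used here. Starts are given here counted from 1, and 2 NMIs off chromosomes 1 to 19 and X were left out. Genes came from GENCODE M21 on GRCm38, and composition from GRCm38.p6. Takai-Jones islands needed windows of 500 bp with at least 55% GC and a ratio of 0.65, and Gardiner-Garden islands 200 bp, 50% and 0.6. Shares and medians were computed with Python 3.11.15, pandas 2.3.3, numpy 2.4.6 and scipy 1.17.1, and the code was tested on simulated data. No test was run. Named genes were the 10 widest members, the 3 widest of each type with at least 5, the 5 farthest from a coding TSS, the 5 with the most genes, the 5 highest and 3 lowest in CpG density, those of 5 gene lists (the 10 widest where a list held more), and the 3 nearest each margin of the rule. Others named beside a count were picked after their values were seen. The members, lists and alternatives were chosen with earlier results of these data known. An NMI missing from the list is not a measurement of methylation.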

Additional observations from a re-analysis of the deposited data

How the results depend on the processing

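Across 34 alternatives to 6 results, 24 moved a value by no more than its counting interval, or by no more than 1.5 times for a count. The other 10 moved it farther. Each result was a single count, share or median, so none had a direction that an alternative could reverse. The number of members ran from 216 to 433. The share of members within 1 kb of a protein-coding TSS, 5.88%, was 2.75% when a TSS within 250 bp of an NMI counted as inside, and 15.2% when only the outermost TSS of each gene was used. The share of lincRNA genes with an NMI, 6.92%, was 7.65% with a TSS within 250 bp, 5.99% without NMIs at or under the lower quartile of width, and 2.79% without NMIs that had a coding TSS within 1 kb of an edge. The median width of the members, 828 bp, was 732.5 bp with a TSS within 250 bp, 1051 bp with the outermost TSS and 1089 bp without the narrow NMIs. Takai-Jones islands, at 62.1% of members, were met at 76.4% without the narrow NMIs, and 91.5% had an island by the looser criteria. Without the members holding a RefSeq mRNA, an alternative chosen after the data were seen, 279 members remained, with a median width of 804 bp. No paired analysis was possible because the NMIs came from 1 BioCAP library, with no other group to pair. With no score, no replicate and no known depth, precision could not be assessed beyond counting error.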

Other observations

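Among the 3602 NMIs without a TSS, 73 (2.03%, 1.59 to 2.54) had the 5′ end of a non-coding gene within 250 bp and none of a protein-coding gene. Members made up between 0.980% of the NMIs of chromosome 18 (3 of 306) and 4.05% of those of chromosome 13 (21 of 518).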
